A study of Mus musculus with 8 samples.

Results

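Top2a-high dividing progenitors were the day 0 cells with a Top2a value of at least 2 on the deposited log2 scale, log2(1 + normalised count). Of 9188 day 0 cells, 2304 passed, out of 30408 cells in all 8 libraries. They were 1184 of 4331 cells in the library labelled Kmt2d+/βgeo and 1120 of 4857 cells in the library labelled wild type. Within each library they were compared with the cells whose Top2a value was 0, which numbered 1792 and 2179 in the same order. The cells in between, 1355 and 1558, entered neither set. Because the cells were chosen by Top2a, every comparison of the chosen cells with Top2a-zero cells is a description and carries no test.

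The cells are cultured neural stem and progenitor cells from the microdissected dentate gyrus of mouse embryos, taken at embryonic day 18 per the labels, while the methods give an earlier day. C57BL/6J females had been mated to Kmt2d+/βgeo males, and the labels name the Mll2Gt(RRt024)Byg gene-trap allele for one library and a wildtype allele with strain C57BL/6J for the other. Both day 0 cultures were undifferentiated and held in EGF and FGF2, and the other 6 libraries were taken 2, 4 and 8 days after these growth factors were removed. RNA was read by droplet 3′ sequencing with unique molecular identifiers (UMIs), each marking 1 captured molecule. There was 1 library per genotype and day, so a genotype cannot be told apart from a culture, an embryo or a library, and cells were not treated as replicates. Intervals in parentheses are 95% intervals of the counts and cover counting error only. The day 0 libraries shared 7 cell barcodes, and 0 of these were Top2a-high in both.

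Top2a encodes topoisomerase IIα, which cuts and rejoins both strands of DNA so that tangled sister chromatids can be parted. Its RNA accumulates through S phase and is most abundant in G2 and mitosis, which makes it a standard marker of dividing cells. Smc2 and Smc4 form the core of the condensin complexes that compact chromosomes for mitosis, and Tmpo encodes the lamina-associated polypeptide LAP2 of the nuclear envelope. Genes used late in the cycle are known to share promoter elements: the cell-cycle homology region (CHR), bound by DREAM and MuvB complexes, and CCAAT boxes, bound by NF-Y. Genes used in S phase often carry E2F sites.

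The sequences before the start of Top2a, of its fellow markers Smc2 and Tmpo and of Kif11, a mitotic kinesin described below, are shown. These genes were high together in the chosen cells. So were Nusap1 and Knl1, whose windows held no match and are not printed. Each sequence is the 200 bases before the RefSeq start, read 5′ to 3′ on the gene's strand, in build GRCm38.p6. Capitals mark CHR letters (TTTGAA or TTCGAA) and CCAAT letters, each searched on both strands with overlapping matches counted. Top2a lies on the minus strand (chr11:99024190-99024389), Smc2 on the plus strand (chr4:52439021-52439220), Kif11 on the plus strand (chr19:37376182-37376381) and Tmpo on the minus strand (chr10:91171620-91171819). The Tmpo window begins at the RefSeq start, which lies 9696 bases inside the gene model of the deposited gene table.
Top2a: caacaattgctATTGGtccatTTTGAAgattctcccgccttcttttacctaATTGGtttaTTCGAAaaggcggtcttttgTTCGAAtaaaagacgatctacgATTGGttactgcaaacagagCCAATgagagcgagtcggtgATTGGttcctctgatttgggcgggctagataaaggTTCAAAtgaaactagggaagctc
Smc2: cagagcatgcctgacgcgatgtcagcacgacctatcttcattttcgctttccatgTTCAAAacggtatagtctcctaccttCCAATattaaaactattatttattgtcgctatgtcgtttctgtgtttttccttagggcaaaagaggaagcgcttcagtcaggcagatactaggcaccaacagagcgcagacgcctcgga
Kif11: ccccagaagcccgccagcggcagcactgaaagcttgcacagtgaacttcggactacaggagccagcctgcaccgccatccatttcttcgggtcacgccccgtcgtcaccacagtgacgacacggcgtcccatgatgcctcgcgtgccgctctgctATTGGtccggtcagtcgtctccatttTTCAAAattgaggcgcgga
Tmpo: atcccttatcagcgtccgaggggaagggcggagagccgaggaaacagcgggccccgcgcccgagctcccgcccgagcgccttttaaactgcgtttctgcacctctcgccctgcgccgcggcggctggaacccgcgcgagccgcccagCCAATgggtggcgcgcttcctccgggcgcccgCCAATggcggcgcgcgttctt
The Top2a window held 4 CHR matches and 5 CCAAT matches. The Smc2 and Kif11 windows each held 1 of both kinds, with the CHR match of Kif11 19 bases before the start. Tmpo had 2 CCAAT matches and 0 CHR matches. The windows of Nusap1 and Knl1, the other leading genes below, held 0 matches of either kind. E2F letters (TTTCCCGC, TTTCGCGC, TTTGCCGC or TTTGGCGC, both strands) occurred 0 times in all 6 windows. Among the 7279 genes of the matrix with a RefSeq window (79.6% of 9140), 8.35% held a CHR match, 33.1% a CCAAT match and 3.08% an E2F match. These are shares of the windows at hand, not of all genes. Only 79.7% of the genes higher in Top2a-high cells, counted below, had a window, so a motif check of that group is void. A match describes letters and is not evidence of a bound site.

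Day 0 cells labelled Kmt2d+/βgeo were Top2a-high in 27.3% of cases (26.0 to 28.7), and those labelled wild type in 23.1% (21.9 to 24.3). The shares lay 4.28 percentage points apart (2.50 to 6.06), with 1 library on each side and no test between genotypes. Top2a values of the chosen cells are 2 or above by the rule that chose them, so they are given only as a description. Their median Top2a value was 3.55 in the library labelled Kmt2d+/βgeo, with quartiles of 2.90 and 4.04 and a maximum of 5.19. In the library labelled wild type the median was 3.71, with quartiles of 2.93 and 4.20 and a maximum of 5.26. As estimated UMIs, the medians were 17.5 and 21.0 molecules per cell and the lowest was 2 in either library.

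The threshold cut through a continuum. The highest value left out was 1.998 in either library, and the lowest kept was 2.002 and 2.003. Within 0.2 of the threshold, 71 cells lay inside and 101 outside in the library labelled Kmt2d+/βgeo, and 73 and 82 in the other. Mean log2 Smc2 was 1.80 just inside and 1.47 just outside in the library labelled Kmt2d+/βgeo, and 1.66 and 1.24 in the library labelled wild type.

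**Figure D1:**
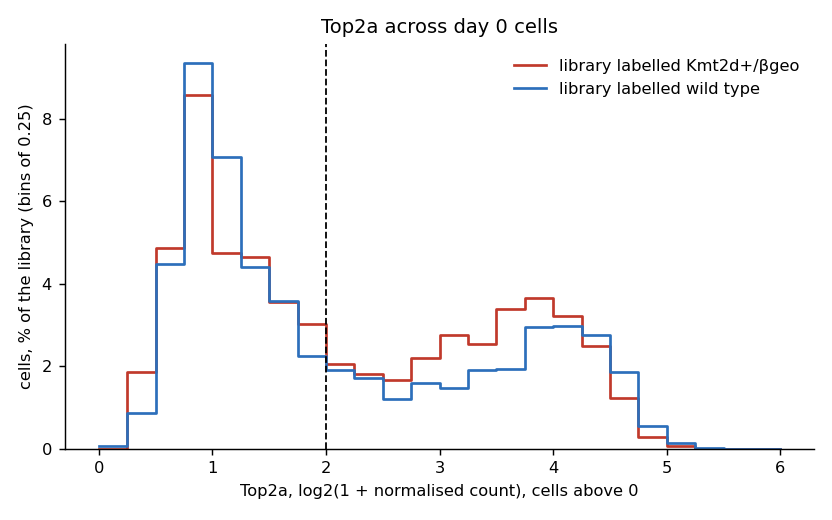
Share of each day 0 library's cells (y axis, percent, bins of 0.25) by Top2a value (x axis, log2(1 + normalised count)), for cells above 0. The dashed line is the threshold of 2, above which lie 27.3% and 23.1% of the cells.

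Top2a-high cells held more RNA molecules than Top2a-zero cells. Median UMIs on the matrix genes were 15711 against 9700 in the library labelled Kmt2d+/βgeo, a ratio of 1.62, and 14395 against 8222 in the library labelled wild type, a ratio of 1.75. Cells in between stood at 11434 and 9557. Of the deepest 5% of cells in each library, 186 of 217 (85.7%, 80.3 to 90.1) and 149 of 243 (61.3%, 54.9 to 67.5) were Top2a-high. The part of depth in the differences below was not tested. Ratios are of mean normalised counts, which have the same total in every cell.

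Of the genes with a mean normalised count of at least 0.1 in either set of cells, 263 of 7153 (3.68%) were higher in Top2a-high cells by a log2 ratio of at least 1 in the library labelled Kmt2d+/βgeo, and 59 (0.825%) were lower. In the library labelled wild type, 271 of 7180 (3.77%) were higher and 61 (0.85%) lower. Of 7001 genes measured in both libraries, 237 (3.39%) were higher by a log2 ratio of at least 1 in both, and 29 (0.414%) were lower by as much in both. The median log2 ratio over these 7001 genes was -0.04 and -0.03. The counts followed the scale and the filter: 16 higher and 0 lower as a difference of mean log2, 110 and 8 with a minimum mean of 0.5, and 266 and 86 with no filter.

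**Figure D2:**
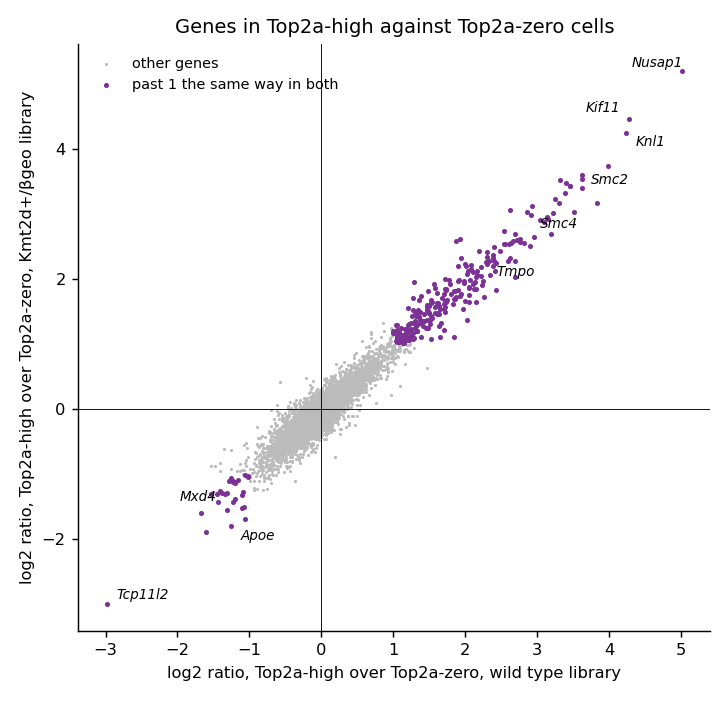
Each point is a gene, placed by its log2 ratio of mean normalised counts, Top2a-high over Top2a-zero cells, in the library labelled wild type (x axis) and in the library labelled Kmt2d+/βgeo (y axis). Purple marks the 237 higher and 29 lower genes past 1 in both; Nusap1 stands at the upper end, at 5.01 on the x axis and 5.20 on the y axis, and Tcp11l2 at the lower end, at -2.98 and -2.995 in that order.

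The markers that travel with Top2a were high in the chosen cells of both libraries. Smc2 (chromosome 4, 52439243 to 52488260) averaged 6.05 normalised counts in Top2a-high and 0.499 in Top2a-zero cells of the library labelled Kmt2d+/βgeo, and 5.58 and 0.451 in the library labelled wild type. These are 12.1-fold and 12.4-fold differences, with log2 ratios of 3.60 and 3.63. Smc4 averaged 5.04 against 0.640 and 4.90 against 0.648, which are log2 ratios of 2.98 and 2.92. Tmpo averaged 3.64 against 0.771 and 3.62 against 0.732, log2 ratios of 2.24 and 2.30. The means of these markers differed little between the libraries and strongly between the sets of cells. After each cell was thinned to 3000 UMIs, Smc2 was seen in 83.5% and 81.3% of Top2a-high cells against 13.3% and 12.4% of Top2a-zero cells. Unthinned, it was seen in 97.7% and 96.4% against 32.5% and 29.3%. Thinning left out 23 cells of the library labelled Kmt2d+/βgeo, 5 of them Top2a-high, and 0 cells of the other.

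Several of the genes with the largest ratios act on the mitotic spindle. Nusap1 (chromosome 2, 119618298 to 119651244), a protein that bundles spindle microtubules, averaged 2.49 against 0.068 normalised counts in the library labelled Kmt2d+/βgeo, a 36.8-fold difference, and 2.33 against 0.072 in the other, a 32.2-fold difference. It was seen in 48.2% and 47.5% of thinned Top2a-high cells and in 2.36% and 2.25% of thinned Top2a-zero cells, against 81.6% and 78.5%, and 6.70% and 6.61%, before thinning. Kif11, the kinesin that pushes spindle poles apart, had log2 ratios of 4.45 and 4.28. Knl1, a kinetochore scaffold, stood at 4.24 in either library.

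Genes of cytokinesis and chromosome folding followed them. Anln, an actin-binding protein of the contractile ring, had log2 ratios of 3.74 and 3.98, and Ect2, the exchange factor that activates RhoA at the cleavage furrow, 3.53 and 3.63. Cit, the citron kinase of the midbody, had ratios of 3.47 and 3.40. Kif18a, a kinesin that damps chromosome movement at metaphase, stood at 3.43 and 3.46, and the condensin II subunit Ncapg2 at 3.39 and 3.62. Rad54l, which acts in homologous recombination, completed, with Smc2, the 10 leading genes at 3.42 and 3.46. The 10 were picked by this ratio, so its size in them is a description.

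Gene lists of the cycle were mostly higher as groups. Of 39 listed spindle, kinesin and cytokinesis genes 13 had a row in the matrix and 12 were measured. Of the 12, 10 passed a ratio of 1 in both libraries and 0 were lower, with medians of 3.15 and 3.25. Ckap2 and Tacc3, which bind spindle microtubules, stood at 2.88 and 3.10, and at 2.62 and 2.77. Of 35 listed kinetochore and centromere genes 12 had a row and 11 were measured, and 10 of these passed, with medians of 2.12 and 2.04. Among them Cenpk, a subunit of the constitutive centromere network, had ratios of 3.12 and 2.92, and Hjurp, which loads the centromeric histone CENP-A, 2.43 and 2.48. Of 35 genes listed as cyclins, mitotic kinases and related genes, 5 had a row in the matrix and 4 passed. None of the 4 is a cyclin, and only Plk4, the kinase of centriole duplication, is a kinase. Plk4 had ratios of 3.33 and 3.39, and G2e3 2.43 and 2.19. Ube2s, an enzyme of the anaphase-promoting complex, stood at 1.93 and 2.11, and the checkpoint protein Bub3 at 1.49 and 1.63. For comparison, 3.39% of all genes passed.

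Of 21 condensin, topoisomerase and cohesin genes other than Top2a, 7 passed, where 3.39% of all genes did, with medians of 0.83 and 0.78. Of the 21, 18 lay above 0 in both libraries, as did 2699 of all 7001 genes. Ncapd2, a condensin I subunit, stood at 2.93 and 3.16, and the condensin II subunit Ncapd3 at 2.15 and 2.08. Among the cohesin genes, Rad21, the cleavable cohesin ring subunit, had ratios of 1.70 and 1.68, Smc1a 1.11 and 1.15, and Smc3 0.84 and 0.85. The topoisomerases that are not tied to division lay near 0, with Top2b at -0.17 in either library and Top1 at 0.10 and 0.06. Top2b is the paralogue of the gene that chose the cells.

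Of 21 nuclear envelope genes 12 passed, again against 3.39% of all genes, with medians of 1.09 and 1.19. Above 0 in both libraries lay 18 of the 21 and 2699 of all 7001 genes. Lmnb1, the B-type lamin, had ratios of 1.96 and 2.14, and Lbr, the lamin B receptor, 1.57 and 1.48. Nucleoporins Nup85 and Nup107 stood at 1.93 and 1.99, and at 1.84 and 1.74. Lmna, the A-type lamin of more mature cells, was 1 of 2 genes below 0 in both, with -0.70 and -0.61.

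DNA replication genes were high in the same cells. All 32 DNA replication and S phase genes in the matrix, of 66 listed, passed in both libraries, where 3.39% of all genes did. Their medians were 1.85 and 2.02, and their ratios lay between 1.05 and 3.51. Atad2, a chromatin ATPase, averaged 1.85 against 0.227 normalised counts and 1.74 against 0.153, log2 ratios of 3.03 and 3.51. Gins1 and Gins3, subunits of the replicative helicase, had ratios of 2.64 and 2.96, and of 2.59 and 2.67. Tyms, which makes thymidylate for DNA, stood at 2.57 and 2.76. Of 17 recombination and repair genes 9 passed, again against 3.39% of all genes. Among them were the helicase Blm with 3.06 and 2.62 and the checkpoint kinase Chek2 with 2.55 and 2.62.

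Chromatin genes were higher by less. Of 21 listed chromatin proteins in the matrix, 3 passed, where 3.39% of all genes did, with medians of 0.63 and 0.69. Ezh2, the H3K27 methyltransferase, stood at 1.85 and 1.73, and Nucks1, a nuclear DNA-binding protein, at 1.43 and 1.52. Suz12, a partner of Ezh2, stood at 1.11 and 1.06, and its wild-type ratio was 0.96 among cells of 8000 to 12000 UMIs and also under 1 against all cells under the threshold. Kmt2d itself, the H3K4 methyltransferase gene that carries the altered allele, averaged 0.181 and 0.205 normalised counts in Top2a-high and Top2a-zero cells of the library labelled Kmt2d+/βgeo. In the library labelled wild type it averaged 0.140 and 0.161. The level was thus not lower in the library labelled Kmt2d+/βgeo. Whether these counts would show the gene-trap allele was not tested, so the level does not check the labels.

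**Figure D3:**
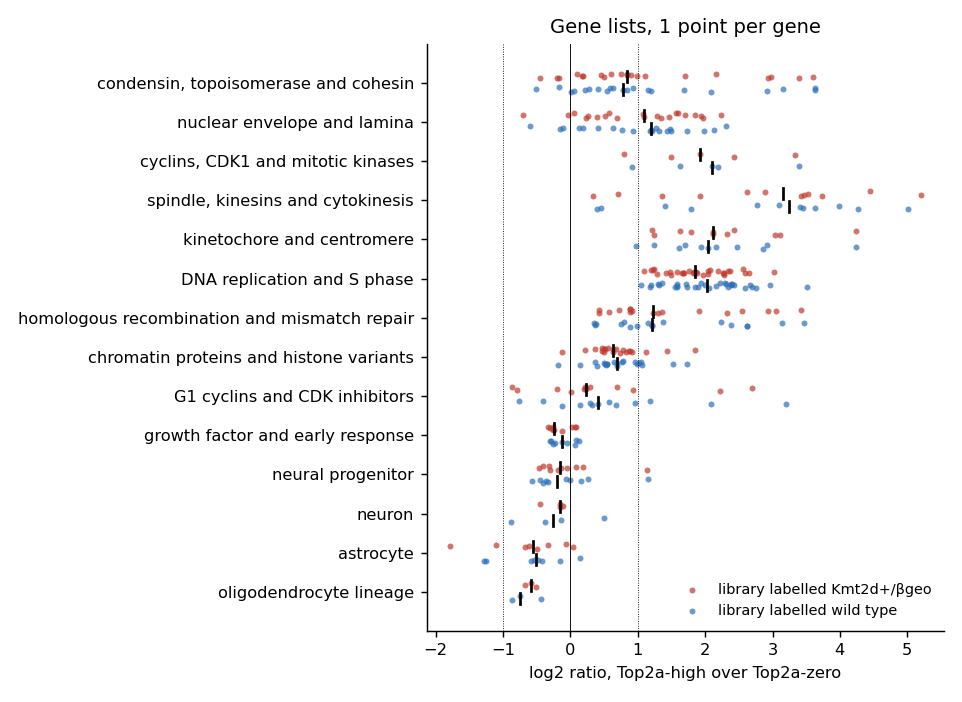
Log2 ratio of mean normalised counts, Top2a-high over Top2a-zero cells (x axis), for each gene of the lists with at least 3 genes measured (y axis). The cytosolic ribosomal protein list is not drawn. Points are genes, colours the 2 day 0 libraries, black bars list medians, dotted lines ratios of 1 and -1. The 32 replication genes lie right of 1, and astrocyte and oligodendrocyte genes lie mostly left of 0.

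Of 13 G1 cyclin and inhibitor genes, 10 lay above 0 in both libraries, as did 2699 of all 7001 genes. Their medians were 0.23 and 0.41, and 2 (15.4%) passed: Rbl1, the p107 pocket protein, with 2.69 and 3.20, and Cdkn2c, the inhibitor p18, with 2.22 and 2.09. Cdkn2a, which encodes p16 and ARF, averaged 2.08 against 3.78 and 1.84 against 3.13 normalised counts, log2 ratios of -0.86 and -0.77. Ccnd2, the G1 cyclin D2, stood at -0.79 and -0.41. Of 9 growth factor and early response genes, 0 passed in either direction, where 3.39% of all genes were higher and 0.414% lower. Egfr, the receptor of the EGF in the medium, stood at -0.26 and -0.31, and Spry2 and Etv5, targets of that pathway, at -0.33 and -0.26, and at -0.26 and -0.29.

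Progenitor genes were present in Top2a-high cells, and 7 of 10 lay below 0 in both libraries, as did 3392 of all 7001 genes. Their summed level averaged 88.0 against 106.9 and 83.0 against 97.4 normalised counts. Fabp7, a fatty acid binding protein of radial glia, averaged 32.3 against 35.6 and 26.8 against 26.9 normalised counts. Vim, the intermediate filament vimentin, averaged 28.6 against 39.7 and 24.5 against 33.5, log2 ratios of -0.47 and -0.45. Of the 10, 1 passed a ratio of 1, where 3.39% of all genes did, and with so few genes this is near the background. The gene was Pax6, a transcription factor of dorsal progenitors. It averaged 0.331 against 0.151 and 0.394 against 0.177, ratios of 1.13 and 1.15. Among cells of 8000 to 12000 UMIs the Pax6 ratio was 0.94 and 1.20.

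Of 8 astrocyte genes 0 were higher and 2 lower, against 3.39% and 0.414% of all genes. With so few genes, 0 higher is near the background for this and the next lists. The 8 genes had medians of -0.55 and -0.52, and their summed level averaged 21.1 against 43.3 and 22.8 against 35.8 normalised counts. Apoe, the lipid carrier apolipoprotein E, averaged 6.18 against 21.3 and 3.12 against 7.41, log2 ratios of -1.79 and -1.25. S100b, a calcium-binding protein of astrocytes, had ratios of -1.11 and -1.28. Among cells of 8000 to 12000 UMIs the Apoe ratio was -1.76 and -0.37 and that of S100b -1.13 and -0.73, with 168 and 225 Top2a-high cells left. Against all cells under the threshold, the S100b ratio in the library labelled Kmt2d+/βgeo was under 1 in size. The 3 oligodendrocyte lineage genes with a row lay below 0 in both libraries, as did 3392 of all 7001 genes, and Olig2, a transcription factor of that lineage, stood at -0.51 and -0.44. Of 7 neuronal genes in the matrix 4 were measured and 0 passed, and Rbfox3, the neuronal NeuN antigen, averaged 0.004 and 0.014 normalised counts in Top2a-high cells. The 13 endothelial, mural and meningeal markers were not analysed here. Of 41 cytosolic ribosomal protein genes 0 passed in either direction, with medians of -0.03 and -0.06.

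The 29 genes lower in Top2a-high cells of both libraries were led by Tcp11l2, which averaged 0.020 against 0.157 and 0.026 against 0.206 normalised counts, log2 ratios of -2.995 and -2.98. Mxd4, a MAD-family partner of MAX that opposes MYC at its target genes, was the most abundant of the 10 lowest, with 0.752 against 2.20 and 1.04 against 2.58, ratios of -1.55 and -1.31. A230057D06Rik and A330076H08Rik, neighbouring noncoding RNA genes on chromosome 7, stood at -1.89 and -1.60, and at -1.60 and -1.67. Agt, the precursor of angiotensin, had a ratio of -1.43 in either library. Abca1, the cholesterol exporter that loads Apoe, stood at -1.29 and -1.31, and Igfbp5, a binding protein of insulin-like growth factors, at -1.30 and -1.34. Hotairm1, Pla2g7 and Slc43a2 made up the rest of the 10, with ratios between -1.54 and -1.29. Txnip and the H3K4 demethylase Kdm5b, named after their values were seen, also passed, with -1.02 in either library and with -1.12 and -1.23.

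The counts were also taken among cells of like depth. Among cells of 8000 to 12000 UMIs, which left 168 and 225 Top2a-high cells, 219 genes were higher and 12 lower. Of these, 199 and 10 were among the 237 and 29. In this window Tcp11l2 had ratios of -2.78 and -2.15 and Mxd4 -1.24 and -1.04. Nusap1 stood at 4.83 and 4.80. In the same window the ratio of Abca1 was under 1 in size in both libraries, that of Agt, Pla2g7 and S100b in the wild-type one, and Igfbp5 and Slc43a2 in the other. Without the deepest 5% of cells, a setting chosen after seeing the data, 242 genes were higher and 29 lower, and 26 of the 29 were shared.

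The level of a cell's Top2a went with which of these genes were high. Mean log2 Nusap1 was 0.07 in Top2a-zero cells of either library, 0.65 and 0.54 in cells with Top2a of 2 to 3, 1.54 and 1.34 at 3 to 4, and 2.30 and 2.18 at 4 and above. Smc2 was already at 2.18 and 1.90 in the cells with Top2a of 2 to 3 and at 3.05 and 2.94 in those at 4 and above. Median UMIs rose along the same bins, from 13914 and 11673 to 17223 and 15403. The part of depth in these gradients was not tested. Replication genes differed among themselves. Their mean log2 over the list was 1.10 and 0.89 at 2 to 3, 1.05 and 1.11 at 3 to 4, and 0.85 and 0.87 at 4 and above. Mean log2 Mcm6, a subunit of the replicative helicase named after its values were seen, was 1.33 and 1.19 at 2 to 3, 1.00 and 1.28 at 3 to 4, and 0.61 and 0.70 at 4 and above. Rrm1, a ribonucleotide reductase subunit also named after its values were seen, stood at 1.36 and 1.27, then 1.57 and 1.80, then 1.60 and 1.67. Apoe was lower in each Top2a-high bin than in Top2a-zero cells, with 2.22 to 2.43 against 3.18, and with 1.57 to 1.72 against 2.26.

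**Figure D4:**
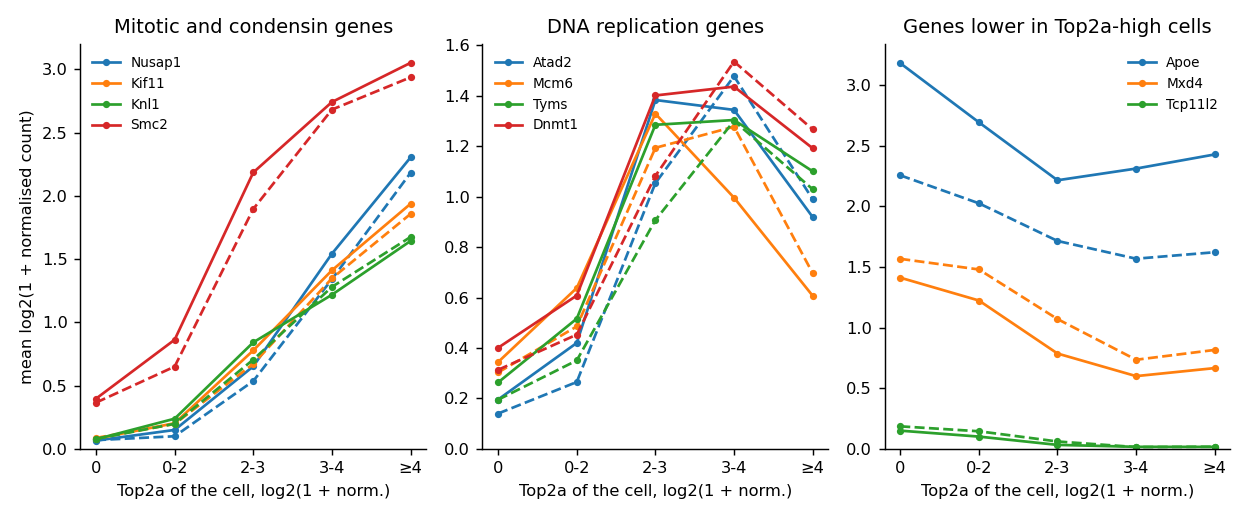
Mean log2(1 + normalised count) of named genes (y axis) by the Top2a value of the cell (x axis, log2 scale, 5 bins), with solid lines for the library labelled Kmt2d+/βgeo and dashed lines for wild type. Nusap1, Kif11, Knl1 and Smc2 were highest in the bin of 4 and above, whereas Mcm6 was highest at 2 to 4 and Apoe in cells with no Top2a.

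To place the cells along the cycle, each was given an angle in the plane of the 2 leading principal components over 155 genes of the cycle, with Top2a left out because it chose the cells. The components held 23.0% and 6.03% of the variance of these genes. Smc2, Smc4 and Lmnb1 weighed most on the first, and Arl6ip1 and Mcm6, with opposite signs, on the second. Between 0.5π and 1.5π lay 1167 of the 1184 Top2a-high cells labelled Kmt2d+/βgeo (98.6%, 97.7 to 99.2) and 1077 of the 1120 labelled wild type (96.2%, 94.9 to 97.2). Of Top2a-zero cells 11.6% and 8.77% lay there, and of cells in between 41.2% and 26.7%. When gene means were taken per library these were 9.93% and 10.0%, and 37.3% and 29.8%, so the order of the libraries turned for Top2a-zero cells. The 155 genes were read in the same cells as Top2a, so this is a description.

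The angle of 1π lies where the second component is 0, which the centring of the genes sets, so shares on either side of it are a description of that scale. Between 0.5π and 1π lay 50.3% and 48.0% of them, and between 1π and 1.5π lay 48.2% and 48.1%. The replication genes named here were higher from 0.75π to 1π than from 1π to 1.25π. The mitotic genes named next were higher in the second of these bins. Both kinds of gene themselves helped to set the angle. From 0.75π to 1π mean log2 Mcm6 was 1.47 and 1.65, and from 1π to 1.25π it was 0.49 and 0.50. Hells, a chromatin remodeller, stood at 1.03 and 0.88 in the first bin and at 0.23 and 0.22 in the second. Tipin, which steadies replication forks, stood at 1.96 and 1.92, then at 1.05 and 1.02.

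Mitotic genes had the opposite order. Nusap1 was at 0.99 and 1.02 from 0.75π to 1π and at 2.16 and 2.11 from 1π to 1.25π. Arl6ip1 stood at 2.24 and 2.41, then at 4.11 and 4.18, and Ckap2 at 0.66 and 0.70, then at 1.73 and 1.79. Smc2 and Tmpo differed less between these bins, with Smc2 at 2.58 and 2.59, then 2.94 and 2.86. Top2a itself was 3.21 and 3.41, then 3.86 and 4.01. Each of these genes other than Top2a helped to set the position, so their values show how the chosen cells vary and not a separate measurement. Along this position, which these genes helped to set, some Top2a-high cells had more S phase transcripts and some more G2 and mitotic transcripts. From 1.25π to 1.5π lay 33 and 51 members, with mean log2 Nusap1 of 1.67 and 1.07. Outside 0.5π to 1.5π lay 17 and 43 members, with mean log2 Smc2 of 0.23 and 0.46.

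**Figure D5:**
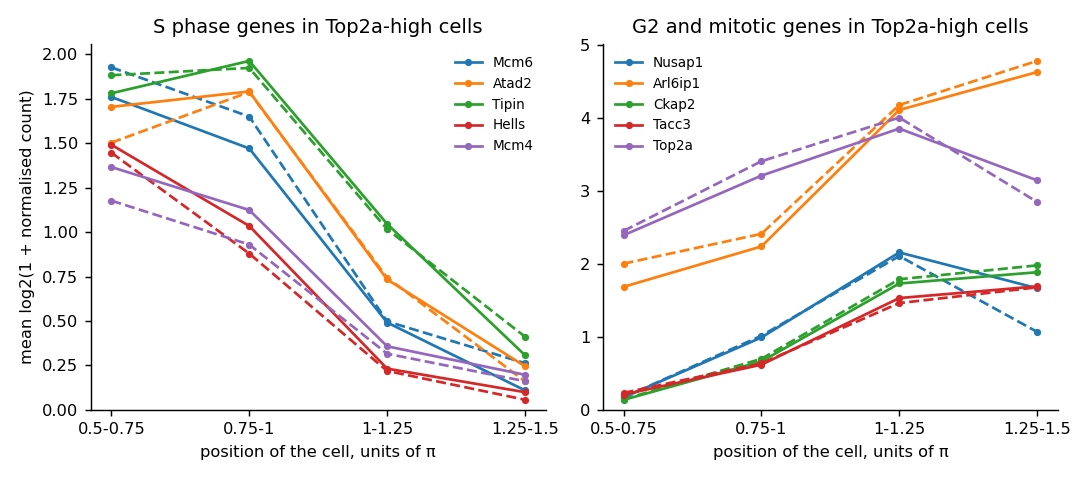
Mean log2(1 + normalised count) of S phase genes (left) and of G2 and mitotic genes (right) in Top2a-high cells by cell-cycle position (x axis, units of π), with solid lines for the library labelled Kmt2d+/βgeo and dashed lines for wild type. The outer bins hold 33 to 54 cells each; S phase genes were high before 1π and Arl6ip1, Ckap2 and Tacc3 after it.

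Between the libraries, Top2a-high cells differed in few genes. Of 7064 genes, 51 (0.722%) had a log2 ratio of Kmt2d+/βgeo over wild type of at least 1 and 66 (0.934%) of at most -1, in libraries with no replicate. The 10 genes named here had the same sign in Top2a-zero cells, and whether the ratios differed between the sets was not tested. Col11a1, a fibrillar collagen chain, averaged 0.446 against 0.042 normalised counts, with a log2 ratio of 3.40 (3.06 to 3.72) in Top2a-high and 2.85 in Top2a-zero cells. Luzp2 had 428 UMIs against 1 UMI, with an interval of the log2 ratio from 6.19 to 13.98, and averaged 0.287 against 0.0082 normalised counts over all day 0 cells. Plxdc2 stood at 2.63, the NOTCH coactivator Maml3 at 2.46 and the homeobox gene Irx5 at 2.22. On the lower side Epb41l4a stood at -2.60, 2210408F21Rik at -2.40, the sialyltransferase St3gal6 at -2.34, and Gm2115 and the ubiquitin ligase Rnf180 at -2.19 each. The cycle markers differed by far less, with 0.12 for Smc2, 0.04 for Smc4 and 0.01 for Tmpo.

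A few genes differed between the libraries in how far Top2a-high cells stood from Top2a-zero cells, which was not tested. Cdkn1a, the p53 target p21, averaged 3.15 against 2.71 in the library labelled Kmt2d+/βgeo, a log2 ratio of means of 0.22. Pooled counts gave 0.27 (0.22 to 0.33). In the library labelled wild type it averaged 3.50 against 1.79, a ratio of means of 0.96, and pooled counts gave 1.03 (0.97 to 1.09). The libraries stood further apart in Top2a-zero than in Top2a-high cells. Fam83d, a spindle protein, had ratios of 2.58 and 1.88, Zranb3 2.62 and 1.92, and Pak3 -0.62 and -1.36. Map1a, a microtubule-associated protein, had ratios of 1.11 and 1.84, Itgb5 -1.11 and -0.37, Ifit2 0.63 and 1.48, and Cacng5 -0.02 and -0.71.

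Top2a-high cells were rare once growth factors were withdrawn, in both series. With the library labelled Kmt2d+/βgeo first, day 2 held 26 of 4900 (0.531%) and 13 of 4098 (0.317%), day 4 held 11 of 2534 (0.434%) and 21 of 3511 (0.598%), and day 8 held 15 of 2965 (0.506%) and 22 of 3212 (0.685%). The day 8 library labelled Kmt2d+/βgeo was shallow, with a median of 3972 UMIs. With 2 or more Top2a UMIs after thinning, which left out 765 of its cells, its share was 0.318%. The day 4 library labelled Kmt2d+/βgeo averaged 0.050 normalised counts of Luzp2, against 0.287, 1.48 and 2.62 at days 0, 2 and 8 of that label and 0.042 in the day 4 library labelled wild type. Its label is therefore in doubt, and no genotype is compared at later days. The few later cells also carried markers other than Top2a. Mean Smc2 in normalised counts was 6.46 and 7.19 on day 2, then 6.86 and 6.49 on day 4, and 4.55 and 4.94 on day 8. Nusap1 varied more, with 3.16 and 5.36 on day 2, 3.18 and 4.06 on day 4, and 1.42 and 2.47 on day 8, where 5 of 15 and 15 of 22 cells had a UMI of it.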

How the data were processed

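Single-cell RNA libraries (10x 3′ kit, v3) of 2 genotypes were analysed. Per the study's methods, the authors estimated counts with Alevin (Salmon 1.3.0) against GRCm38, took spliced counts as expression, removed low-quality cells and probable doublets, and dropped mitochondrial and rarely detected genes. The deposited matrix holds the authors' log2(1 + normalised count) for 9140 genes. The deposited cell table gives total UMIs per cell as the authors' estimated count. No doublet caller was run.

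Values were turned back to normalised counts, which summed to 8707 in every cell. The commonest nonzero value of a cell was taken as 1 UMI, and 86.8% of nonzero values were then within 0.01 of whole numbers. Estimated UMIs were rounded for pooled counts and thinned to 3000 per cell. Python 3.11.15, numpy 2.4.6, scipy 1.17.1 and statsmodels 0.14.6 were used. Genes with a mean normalised count of at least 0.1 in either set were compared by the log2 ratio of means, with a threshold of 1 and Top2a left out. Shares have Clopper-Pearson and differences Newcombe 95% intervals, and ratios of pooled counts exact conditional intervals. Ratio code was tested on simulated data. The design allowed no test: there was 1 library per genotype and day, and the cells were chosen by Top2a.

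The members and gene lists were chosen with earlier results of these data known. Named genes were Top2a, Smc2, Smc4, Tmpo and Kmt2d, the 10 highest and 10 lowest by the smaller of the ratios of both libraries, up to 4 per list, the 5 highest and 5 lowest between libraries in Top2a-high cells, the 5 highest and 5 lowest differences of ratios, and markers of other cell types. Ckap2, Tacc3, Ncapd3, Rad21, Smc1a, Smc3, Top1, Top2b, Lbr, Lmna, Ccnd2, Mcm6, Hells, Tipin, Arl6ip1, Rrm1, Txnip and Kdm5b were added to those of the rule once their values had been seen. The settings tried were the threshold, the comparison cells, pooled counts, mean log2 differences, a depth window, ribosomal scaling, filters, the position genes and thinning. Cell-cycle position was a polar angle, as in the study, but over 155 listed genes without Top2a, with neither the study's choice of variable annotated genes nor its alignment of samples nor its reference embedding. Results for some items are not reported here.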

Additional observations from a re-analysis of the deposited data

Results flagged for a closer look

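Of 92 named genes other than Top2a, 3 had opposite directions in the 2 day 0 libraries for Top2a-high over Top2a-zero cells. Many of the 92 were picked by the smaller of their ratios in both libraries, which favours genes with the same direction in both. The count of 3 therefore follows from how the genes were named and is not a measure of agreement between the libraries. For comparison, of all 7001 genes 2699 lay above 0 in both libraries and 3392 below 0 in both. The differences between the libraries were not tested, since each genotype had 1 library. Prkcq, a protein kinase C, had a log2 ratio of 0.42 (pooled counts, 0.21 to 0.69) where the label was Kmt2d+/βgeo, and -0.58 (-0.79 to -0.26) where it was wild type. Add2, a cytoskeletal adducin, had ratios of -0.74 (-1.06 to -0.43) and 0.19 (-0.06 to 0.40), the second with an interval that included 0. Epb41l4a had ratios of -0.54 (-0.95 to -0.16) and 0.083 (-0.17 to 0.18), the second again with an interval that included 0. Prkcq and Add2 were named because their ratios differed most between the libraries, and Epb41l4a because it was lower in the library labelled Kmt2d+/βgeo.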

How the results depend on the processing

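The share of Top2a-high cells followed the rule that chose them, with the library labelled Kmt2d+/βgeo first: 43.3% and 40.4% at a threshold of 1, 19.6% and 16.6% at 3, 32.4% and 26.6% with 3 or more estimated UMIs, 23.8% and 19.95% with 2 or more UMIs after thinning, and 24.3% and 21.0% without the deepest 5% of cells, a setting chosen after seeing the data. The difference between the libraries was above 0 under each of these, from 2.94 to 5.75 percentage points. The count of genes in both libraries was 16 higher and 0 lower as a difference of mean log2, a scale on which low genes differ by less, and 110 and 8 with a minimum mean of 0.5. Lower genes numbered 49 at a threshold of 3, 17 against all cells under the threshold, 12 at 8000 to 12000 UMIs and 86 with no filter, where the higher genes numbered 262, 201, 219 and 266. Between the libraries, 16 and 15 genes passed in Top2a-high cells with a minimum mean of 0.5, and 2 and 1 as a difference of mean log2. The ratio of median UMIs was 1.70 and 1.85 at a threshold of 3. Of 111 ratios of named genes past 1, 13 were under 1 at 8000 to 12000 UMIs, 89 as a difference of mean log2, and 0 to 4 with pooled counts, a threshold of 3, all cells under the threshold or ribosomal scaling, and 0 changed sign. Of 192 list medians under other settings 8 changed sign, all from medians of at most 0.255 in size. The shares of Top2a-high cells between 0.5π and 1.5π stayed within their intervals. Those of the other cells did not: with Top2a among the genes, 9.82% and 7.39% of Top2a-zero cells lay there. Leaving out a library was not possible with 1 per group. No paired analysis was possible because each genotype had 1 library at day 0 and no test was run.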
